A study of Mus musculus with 3 samples.

Results

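The data describe 9 genes of leukocyte adhesion in single tdTomato-positive cells of the mouse hippocampus: Selplg, F11r, Itgax, Itga4, Itga6, Itgb1, Itgb5, Icam1 and Cd44. They were taken by symbol from the 31053 genes counted, and all 9 were found in each run. The mice were Cx3cr1CreERT2/+, Rosa26tdTomato/+ and NestinTK-eGFP/+, so that tamoxifen (100 mg/kg on 4 days) switched on the reporter in cells that had used the Cx3cr1 locus. The labels describe 12 animals, 6 male and 6 female, of no stated age, in 3 droplet runs of a single group. They do not assign animals to runs, and the 3 runs may be technical repeats. The p-values rest on how far the difference between populations inside a run varied over these 3 runs. In most fits that spread was an estimate shared by all genes, so a gene's own spread did not enter. No untreated or other genotype was measured, and the populations of cells are compared with each other inside each run. The 3 runs held 24225612 to 34140879 unique molecular identifiers (UMIs, each a captured RNA molecule). A cell was kept if it had 1000 or more UMIs, 500 or more genes and no more than 10% of its UMIs from mitochondrial genes, which left 19791 cells, with medians of 3438 to 4425 UMIs per run. Of their barcodes, 23 occurred in more than 1 run.

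Leukocytes reach and hold their places in tissue by a sequence of contacts. Glycoproteins such as PSGL-1 let cells roll on selectins, integrins (pairs of an alpha and a beta subunit) then bind matrix or immunoglobulin-family ligands such as ICAM-1, and junctional molecules and hyaluronan receptors take part in crossing and anchoring. Microglia are resident cells of the brain parenchyma, while border-associated macrophages sit at vessels, meninges and choroid plexus, and MHC class II-high myeloid cells and lymphocytes are rare in the healthy brain.

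Selplg encodes PSGL-1, the ligand of P-selectin (ENSMUSG00000048163, GRCm38 chromosome 5, 113818536 to 113832644, minus strand). F11r encodes the junctional adhesion molecule JAM-A (ENSMUSG00000038235, chromosome 1, 171437535 to 171464603). Itgax encodes CD11c, the alpha X subunit that pairs with beta 2 (ENSMUSG00000030789, chromosome 7, 128129547 to 128150657). Itga4 encodes the alpha 4 subunit, whose pair with beta 1 binds VCAM-1 (ENSMUSG00000027009, chromosome 2, 79255426 to 79333123). Itga6 encodes a laminin-binding subunit (ENSMUSG00000027111, chromosome 2, 71745616 to 71858416). Itgb1 encodes the beta 1 subunit shared by many integrins (ENSMUSG00000025809, chromosome 8, 128685654 to 128733200). Itgb5 encodes the beta 5 subunit, the partner of alpha V (ENSMUSG00000022817, chromosome 16, 33829665 to 33949338). Icam1 encodes a ligand of beta 2 integrins (ENSMUSG00000037405, chromosome 9, 21015985 to 21028817), and Cd44 the hyaluronan receptor (ENSMUSG00000005087, chromosome 2, 102811141 to 102901665, minus strand). The positions cover whole genes, and the counts are per gene, with no exon or isoform. Itga4 overlaps Cerkl, Itga6 overlaps Gm17250 and Icam1 overlaps Gm47079 on the opposite strand, and each of these was counted as a gene of its own. Use of strand in counting is not given in the sources used here, so reads of such partners may not be told apart.

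RefSeq promoters of GRCm38.p6 were at hand for 7 of the 9 genes. The 250 bases before the start are shown for 4 of them, because Itgax, Itga4 and Cd44 were the members higher in MHC class II-high cells and F11r moved opposite to Itgax in the disease-associated-like state. Capitals mark the AP-1 motif TGANTCA on either strand. The windows are Itgax at chr7:128129300-128129549 (plus strand), F11r at chr1:171437311-171437560 (plus), Itga4 at chr2:79255176-79255425 (plus) and Cd44 at chr2:102901666-102901915 (minus).
Itgax: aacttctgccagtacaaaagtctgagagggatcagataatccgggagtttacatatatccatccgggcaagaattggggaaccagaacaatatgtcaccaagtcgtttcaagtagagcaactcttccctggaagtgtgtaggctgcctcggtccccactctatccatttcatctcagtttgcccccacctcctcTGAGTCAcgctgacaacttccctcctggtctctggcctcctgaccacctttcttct
F11r: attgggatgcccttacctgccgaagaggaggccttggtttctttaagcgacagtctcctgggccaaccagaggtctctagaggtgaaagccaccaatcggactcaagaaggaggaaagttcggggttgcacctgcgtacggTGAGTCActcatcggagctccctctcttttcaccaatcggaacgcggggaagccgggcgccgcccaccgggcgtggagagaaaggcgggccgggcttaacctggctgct
Itga4: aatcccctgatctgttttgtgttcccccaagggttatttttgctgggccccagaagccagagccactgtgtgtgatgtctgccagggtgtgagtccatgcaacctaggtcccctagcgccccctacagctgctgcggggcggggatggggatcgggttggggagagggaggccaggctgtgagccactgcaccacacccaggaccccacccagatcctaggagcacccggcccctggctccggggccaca
Cd44: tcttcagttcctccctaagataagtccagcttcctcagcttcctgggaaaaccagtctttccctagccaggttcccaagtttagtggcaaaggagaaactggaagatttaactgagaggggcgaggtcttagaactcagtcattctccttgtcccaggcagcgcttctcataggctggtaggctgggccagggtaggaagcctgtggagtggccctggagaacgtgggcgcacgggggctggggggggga
The AP-1 motif was in Itgax and F11r among the 7 promoters, and in 6.75% of all 32851 RefSeq promoters of that length. No match was found in the 7 windows for 3 other strings, each searched on both strands. These were the PU.1 motif GAGGAAGT (2.44% of all promoters), an NF-kB string (0.356%) and an interferon-stimulated response element string (2.98%). Each was a single spelling of its motif, so sites spelled in another way, in Icam1 or elsewhere, were not counted. A match describes letters in a window, and these data hold no binding measurement.

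Cells were clustered without the 9 genes and without 65 other adhesion genes, so that none of them could shape the clusters. Microglia-like cells were 18353 (92.7% of all). Within them lay a disease-associated-like state (972 cells), an interferon-responsive-like state (426), a cycling-like state (182), an immediate early-high state (837, of which 819 were in run 3) and 15936 others with no named state. All 12 microglia markers had UMIs in those others, with summed levels of 36011 to 45557 CPM by run (CPM, the UMIs of a gene scaled to the same total in each sum of cells). The others included a cluster of 231 cells with a median of 1452 UMIs, whose leading genes were neutrophil and granule transcripts such as S100a9, Camp and Elane. Of its cells 3 held all 284 of its neutrophil marker UMIs, and its microglia markers summed to 28078 CPM. Without this cluster no member's call changed, and the largest shift among the members' 40 fitted changes was 0.0098 on the log2 scale. A further 612 cells, with Klf2 and Emp3 as top genes, formed a cluster that was given no name and was not counted as microglia-like. MHC class II-high cells numbered 125 (37, 36 and 52 in runs 1, 2 and 3), and T/NK-like cells, led by Gzma, Ccl5 and Nkg7, numbered 15 (2, 4 and 9), too few for a test. Border-associated macrophage-like cells numbered 115 (58, 18 and 39). Of these, 58 cells were in mixed clusters, in which microglia markers were at 0.5 or more of their level over all cells (0.779 and 0.503 in these clusters, against 0.446 in a cluster of 2 cells just under that limit). The mixed cells had a median of 8879 UMIs, and 46.6% of them held both Xist and Y-linked UMIs, against 1.75% of the 57 unmixed macrophage-like cells and 2.54% of microglia-like cells. Of the mixed cells 45 were in run 1. Doublets were not removed, so the fitted changes of the 9 genes in macrophage-like cells are given with and without the mixed clusters. Free RNA was gauged in 34 choroid plexus epithelium-like cells with at most 3 microglia markers detected (median 1683.5 UMIs). There Selplg had 4 UMIs (50.1 CPM, 11.8% of cells), F11r 2, Itgb1 4 and Itgb5 1. Itgax, Itga4, Itga6, Icam1 and Cd44 had none, which allows up to 37.6 CPM.

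Selplg stood high in all microglia-like states and low in unmixed border macrophages. In microglia-like cells of no state it was at 3689, 5232 and 3652 CPM in runs 1, 2 and 3. In disease-associated-like cells it was at 1913, 2714 and 1794 CPM, below every run of the former. In MHC class II-high cells it was at 672, 510 and 522 CPM, and in T/NK-like cells at 1424, 1548 and 995 CPM. In unmixed macrophage-like cells Selplg was at 259, 81.8 and 118 CPM, from 34 UMIs, and in the mixed clusters at 2632, 2361 and 2063 CPM. Of those 34 UMIs, 14 came from the 2 cells of the cluster just under the mixed limit (1237 CPM). The other 55 cells had 93.4 CPM (exact 95% Poisson interval 57.1 to 144), against 50.1 CPM (13.7 to 128) in choroid plexus epithelium-like cells. Ordered by mean, the interferon-responsive-like, cycling-like and stateless microglia-like cells overlapped in range, whereas the T/NK-like, MHC class II-high and unmixed macrophage-like cells each lay apart from the next. With cells thinned to 2000 UMIs, Selplg was detected in 99.8% of stateless microglia-like, 43.0% of MHC class II-high and 10 of 50 unmixed macrophage-like cells. Without thinning these shares were 99.9%, 70.4% and 29.8%.

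F11r too was highest in stateless microglia-like and lowest in unmixed macrophage-like cells, but, unlike Selplg, it had a lower mean in T/NK-like than in MHC class II-high cells, with ranges that overlapped. It was at 699, 984 and 840 CPM in stateless microglia-like cells of runs 1, 2 and 3, at 488, 678 and 599 CPM in disease-associated-like cells and at 170, 372 and 190 CPM in MHC class II-high cells. In unmixed macrophage-like cells 6 UMIs were counted, giving 16.2, 0 and 39.4 CPM, around the 25.1 CPM of choroid plexus epithelium-like cells. T/NK-like cells had 136, 200 and 154 CPM of F11r from 15 cells.

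Itgax, in contrast, was nearly absent from stateless microglia-like cells, at 1.80, 1.33 and 1.43 CPM in runs 1, 2 and 3. The level of Itgax was 47.7, 29.8 and 37.7 CPM in disease-associated-like cells, 8.53, 16.1 and 3.51 CPM in interferon-responsive-like cells and 11.3, 15.3 and 40.2 CPM in MHC class II-high cells. All runs of these 3 populations lay above all runs of the stateless cells. Unmixed macrophage-like cells held no Itgax UMI, which in 225381 UMIs allows up to 13.3 CPM. Itgax UMIs were found in 132 of 972 disease-associated-like cells (13.6%), with at most 9 in a cell. After thinning to 2000 UMIs the share was 5.48% (exact 95% binomial interval 4.11 to 7.14) against 0.266% (0.191 to 0.361) in stateless cells, intervals that cover counting error only.

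Of the beta 1 partners, Itga4 marked the non-microglial populations. It was at 0.975, 0.247 and 0.344 CPM in stateless microglia-like cells, from 37 UMIs, and had no UMI in interferon-responsive-like cells. In MHC class II-high cells Itga4 was at 90.6, 71.4 and 88.4 CPM, in unmixed macrophage-like cells at 32.4, 54.5 and 94.5 CPM (16 UMIs) and in T/NK-like cells at 0, 49.9 and 172 CPM (11 UMIs). The ranges of these 3 overlapped one another, and the MHC class II-high and unmixed macrophage-like ranges lay above every microglia-like state.

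Itga6 was at 283, 236 and 347 CPM in stateless microglia-like cells of runs 1, 2 and 3. It was at 202, 147 and 254 CPM in disease-associated-like cells, at 178, 54.5 and 134 CPM in unmixed macrophage-like cells and at 121, 76.5 and 64.3 CPM in MHC class II-high cells. Neighbours in the order of Itga6 means all overlapped in range.

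Itgb1 differed past the threshold in none of the edgeR comparisons below, in which its unadjusted p was never under 0.05 either. It was at 251, 230 and 239 CPM in stateless microglia-like cells, 219, 220 and 271 CPM in disease-associated-like cells and 200, 127 and 163 CPM in MHC class II-high cells. In unmixed macrophage-like cells Itgb1 was at 194, 327 and 150 CPM. Ordered by mean Itgb1, these populations, the T/NK-like cells, the mixed clusters, the other microglia-like states and the Klf2- and Emp3-led cluster each overlapped with the next.

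Itgb5 was high in microglia-like and low in non-microglial cells, with 966, 1235 and 978 CPM in stateless microglia-like cells, 476, 352 and 273 CPM in MHC class II-high cells and 211, 136 and 228 CPM in unmixed macrophage-like cells. The disease-associated-like cells, at 916, 1044 and 918 CPM of Itgb5, overlapped the stateless cells.

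Icam1 was at 107, 169 and 120 CPM in stateless microglia-like cells and at 139, 218 and 129 CPM in disease-associated-like cells. In MHC class II-high cells it was at 64.2, 209 and 105 CPM, a range that took in that of the stateless cells. A single Icam1 UMI was counted in unmixed macrophage-like cells, 4.44 CPM with an exact Poisson interval of 0.112 to 24.7.

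Cd44 was at 0.225, 0.346 and 0.287 CPM in stateless microglia-like cells, from 18 UMIs in 15936 cells. It reached 7.55, 76.5 and 88.4 CPM in MHC class II-high cells (50 UMIs) and 67.8, 150 and 34.3 CPM in T/NK-like cells (6 UMIs). All 115 macrophage-like cells together held no Cd44 UMI, which in 896744 UMIs allows up to 3.35 CPM.

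**Figure D1:**
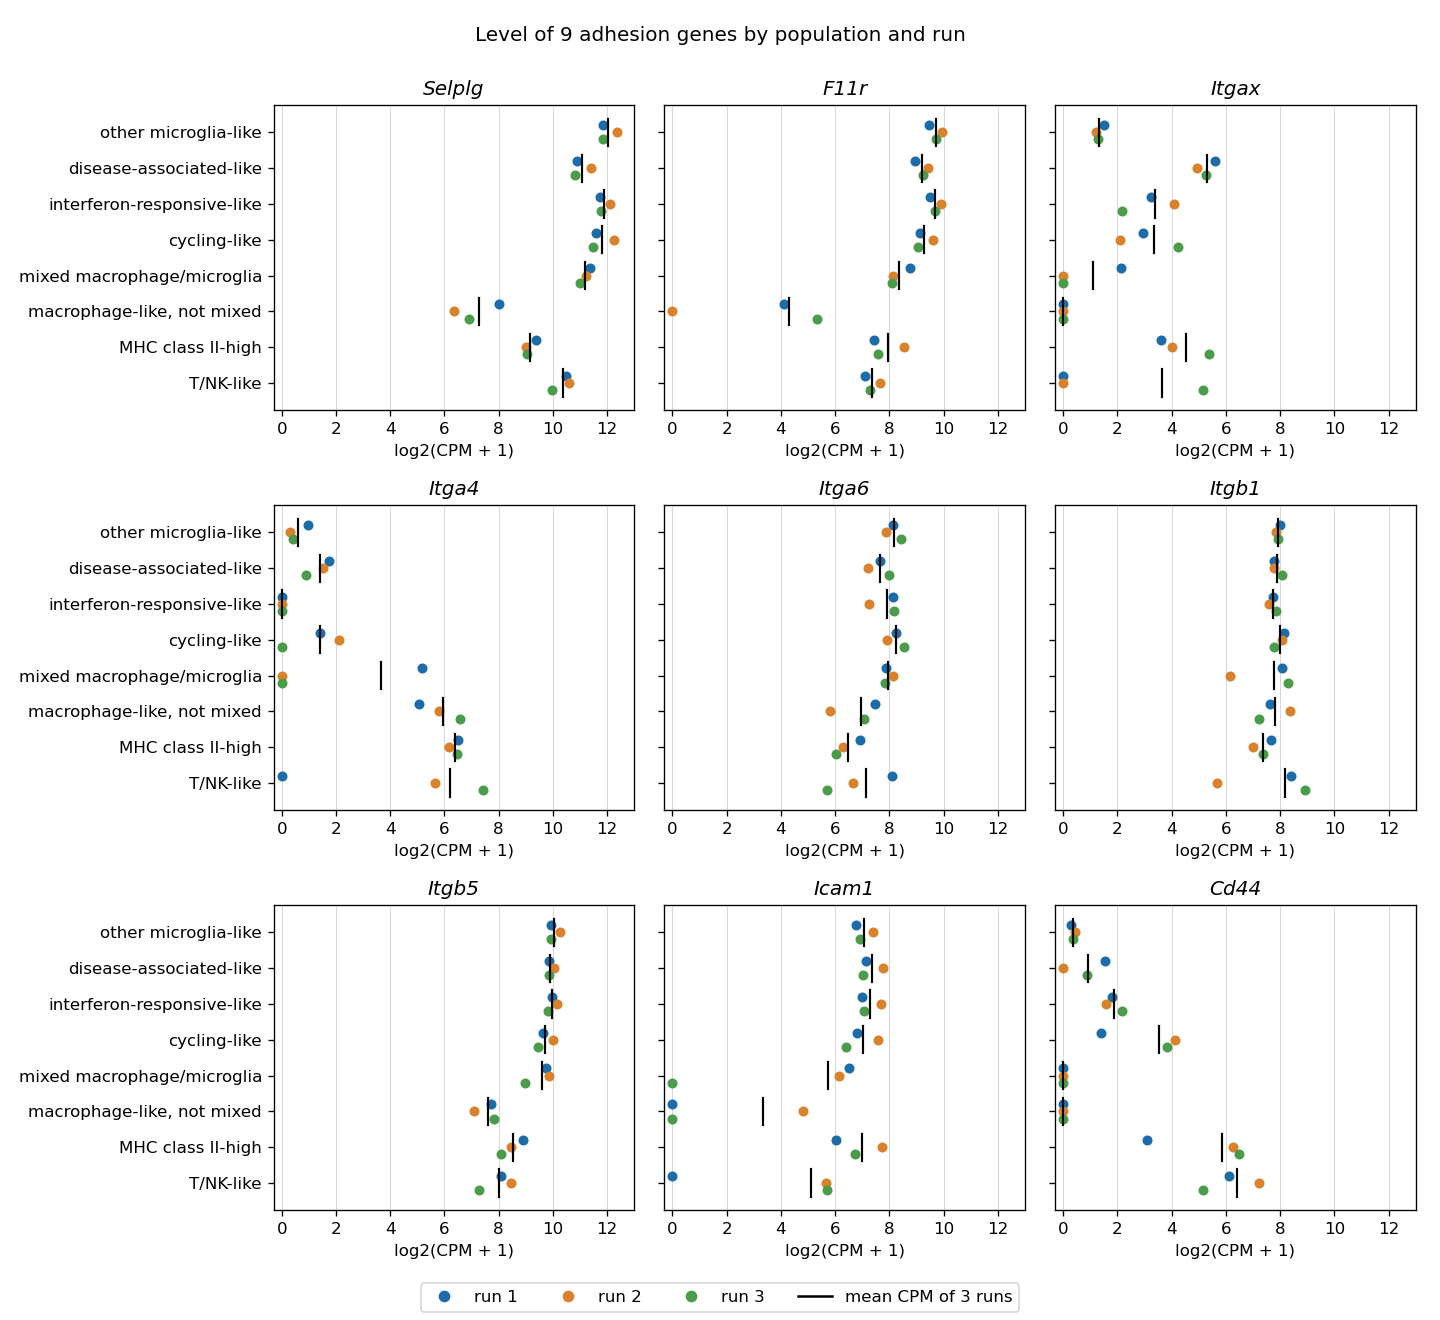
Level of each gene as log2(CPM + 1) in 8 populations, with a point for each run and a black line at the mean CPM of the 3 runs. Selplg, F11r, Itgb5 and Icam1 are lowest in unmixed macrophage-like cells, and the run ranges of Itgb1 overlap between neighbours in the order of means. Itga4 separates MHC class II-high and unmixed macrophage-like cells from all microglia-like states, while its range in the mixed clusters, 0 to 35.3 CPM, does not lie apart.

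The runs differed in the same way for several genes. Selplg, F11r, Itgb5 and Icam1 were highest in run 2 in 4 of 4 microglia-like populations (stateless, disease-associated-like, interferon-responsive-like and cycling-like), and Itga6 was lowest in run 2 and highest in run 3 in all 4. Run 2 had the lowest median depth per cell, 3438 UMIs, and its part in these levels was not tested. The comparisons below were therefore made within runs, with the run as a block.

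Disease-associated-like cells, a state known from tissue around pathology, had more Itgax and Icam1 and less Selplg, F11r and Itga6 than the other microglia-like cells. Their 3 leading genes were the chemokine genes Ccl4, Ccl3 and Ccl2, and 5 disease-associated markers (Lgals3, Spp1, Lpl, Csf1 and Cst7) were among the 10. Itgax rose 26.4-fold (log2 4.72 ± 0.21, SE, adjusted p 5.4e-112 from the edgeR quasi-likelihood test, Benjamini-Hochberg adjusted, n = 3 runs). Icam1 rose by 0.38 ± 0.06 on the log2 scale (edgeR adjusted p 1.02e-08), less than the spread of its levels between runs, which overlapped between the states, but higher within each of the 3 runs. Selplg fell by 0.90 ± 0.03 on the log2 scale, 1.87-fold (edgeR adjusted p 5.47e-166), F11r by 0.45 ± 0.04 and Itga6 by 0.46 ± 0.05, each lower in all 3 runs. Itgb1 (log2 0.02 ± 0.05) and Itgb5 (-0.07 ± 0.04) did not pass, and Itga4 and Cd44, with 9 and 5 UMIs in the state, were below the filter on low counts. Thus 5 of 7 members tested passed, beside 32.2% of all genes tested in this comparison. Without the run as a block, F11r (edgeR adjusted p 0.184), Itga6 (0.174) and Icam1 (0.462) were not called, while Selplg and Itgax were. With cells chosen by marker gates in place of clusters, Selplg changed by -1.64 and Icam1 by 0.14 (edgeR adjusted p 0.671), while Itgb5 was called lower (-0.21, adjusted p 0.0403).

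Other adhesion genes also changed in this state, in which 32.2% of all genes tested were called. Of 16 other integrin subunits 7 were tested, and 2 rose and 5 fell (median log2 -0.35 against -0.03 for all genes tested). Itga5, the fibronectin receptor subunit, rose by 1.44 to 20.3 ± 6.69 CPM (SD, n = 3), while Itga9 fell by 0.72, Itgb3 by 0.42 and Itgam, which encodes CD11b, by 0.35 from 475 to 350 CPM. Of 11 tested surface molecules and ligands, 4 rose and 4 fell (median -0.02). Cadm1 rose by 1.65, from 114 ± 13.1 to 344 ± 52.7 CPM, and Cd34 by 0.68, whereas Pecam1 fell by 1.01 and Jam3, a relative of F11r, by 0.66. Of 20 tested genes of integrin activation and anchoring, 2 rose and 9 fell (median -0.07). The Src-family kinase gene Fgr rose by 3.60, from 2.48 to 28.3 CPM, and Fermt3, the kindlin of blood cells, fell by 0.32, with Actn1 (-0.58) and Tln2 (-0.45). Without the block, which left 5.22% of all genes called, the calls dropped from 7 to 2 for integrin subunits and from 8 to 5 for surface molecules. Those of activation genes dropped from 11 to 1, and were 6 without run 1 (beside 21.6% of all genes) and 6 by DESeq2 (18%). Itgb3 was not called without run 1 or run 3 nor by DESeq2, and without the block Itgam, Cd34, Jam3, Fermt3, Actn1 and Tln2 were not called.

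Interferon-responsive-like cells differed little in the 9 genes. Itgax rose 6.01-fold (log2 2.59 ± 0.57, edgeR adjusted p 0.000563), from 17 UMIs in 13 cells, higher in all 3 runs. It was the single member called of 8 tested, beside 2.46% of all genes tested. The call was lost without run 1 (log2 2.81, edgeR adjusted p 0.103), without run 2 (2.01, 0.253) and without the block (0.0632). Of those 17 UMIs, 3 were in 2 cells with over 10000 CPM of MHC class II genes, whose part in the result was not tested. Selplg (-0.08 ± 0.05), F11r (0.03 ± 0.06), Itga6 (-0.19 ± 0.08), Itgb1 (-0.14 ± 0.08), Itgb5 (-0.01 ± 0.05) and Icam1 (0.28 ± 0.09, edgeR adjusted p 0.0909) did not pass, nor did Cd44 from 5 UMIs (adjusted p 0.187). Icam1 was called with DESeq2 size factors (edgeR adjusted p 0.0448) and Cd44 with marker gates (log2 3.93, adjusted p 0.00578). Among the other adhesion genes, 0 of 7 integrin subunits passed by edgeR (1 at an unadjusted p under 0.05) and 0 by DESeq2. Of 11 surface molecules and ligands 2 rose, with Cd47, the ligand of SIRP-alpha, up by 0.53 to 412 ± 23.3 CPM.

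Cycling-like cells had less F11r, Itgb5 and Selplg and more Cd44 and Itgax than the other microglia-like cells. F11r, at 562, 780 and 532 CPM in runs 1, 2 and 3, fell by 0.53 ± 0.12 (log2, SE, edgeR adjusted p 0.000106). Itgb5, at 793, 1021 and 703 CPM, fell by 0.45 ± 0.11 (edgeR adjusted p 0.00139), and Selplg, at 3119, 4827 and 2848 CPM, by 0.35 ± 0.12 (edgeR adjusted p 0.0259). Each was lower in all 3 runs, though the ranges over runs overlapped. Cd44, at 1.65, 16.5 and 13.2 CPM from 9 UMIs in 6 cells, rose 27.2-fold (log2 4.77 ± 0.96, edgeR adjusted p 2.49e-05). Cd44 passed the low-count filter only by its level in cycling-like cells, so it could be called only as higher. Itgax, at 6.59, 3.30 and 17.6 CPM from 9 UMIs in 8 cells, rose 4.68-fold (2.23 ± 0.74, edgeR adjusted p 0.0208). One cell of 182, in run 3, had over 10000 CPM of MHC class II genes and held 2 of the Cd44 and 1 of the Itgax UMIs. Itga6, whose CPM was higher in all 3 runs though its fitted change was -0.04, did not pass, nor did Itgb1 and Icam1, so 5 of 8 members tested were called, beside 16.4% of all genes. With no low-count filter 5 of 9 were called, beside 10% of all genes.

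Several calls in cycling-like cells turned on single runs or on the block. Itgax was not called without any 1 of the runs (edgeR adjusted p 0.0539 to 0.341). Cd44 was not called without run 2 (log2 4.26, edgeR adjusted p 0.109), and Selplg was not called without run 1 (0.485) or run 2 (0.105). Without the block, Selplg (edgeR adjusted p 0.416), F11r (0.095) and Itgb5 (0.156) were not called, and Itgb5 was not called without run 1 (0.138). Of the other adhesion genes, beside the same 16.4%, 2 of 7 integrin subunits fell, Itga9 by 0.97 and Itgam by 0.38. Of 12 surface molecules 1 rose and 2 fell (Ninj1 by 0.47 and Cd47 by 0.46), and of 20 activation genes 4 fell, which were Tln2 (-0.91), Rap1b (-0.48), Fermt3 (-0.47) and Lims1 (-0.36), against a median of -0.06 for all genes. The 4 activation calls became 0 in edgeR without run 1 (beside 6.95% of all genes), 1 without the block (7.23%) and 2 by DESeq2 (8.16%). Of the 8 named changes, those of Itgam, Cd47, Fermt3 and Lims1 were called neither without the block, nor without run 1, nor by DESeq2, and that of Ninj1 neither without the block, nor without run 2 or run 3, nor by DESeq2.

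The immediate early-high state, marked by Fos-type early response genes, was held almost wholly by run 3, so it has no replicate and no test. In run 3 its cells had 3293 CPM of Selplg (exact 95% Poisson interval 3231 to 3357) against 3652 in stateless cells, 801 of F11r against 840, and 308 of Itga6 against 347. Icam1 was at 130 CPM (118 to 143) against 120, Itgb5 at 1017 against 978 and Itgb1 at 210 against 239. Itgax was at 3.42 CPM from 11 UMIs, Cd44 had 2 UMIs and Itga4 1.

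MHC class II-high cells, which carry the antigen presentation genes, had more Itga4, Cd44 and Itgax and less Selplg, F11r, Itga6 and Itgb5 than microglia-like cells. Itga4 rose from 0.602 ± 0.394 to 83.5 ± 10.5 CPM (SD, n = 3), a fitted log2 change of 7.49 ± 0.51 (SE, edgeR adjusted p 1.82e-45). Cd44 rose from 0.525 ± 0.0833 to 57.5 ± 43.7 CPM (6.92 ± 0.60, edgeR adjusted p 7.54e-28), and Itgax from 4.29 ± 0.894 to 22.3 ± 15.6 CPM (2.85 ± 0.55, edgeR adjusted p 3.32e-06). Selplg fell by 2.46 ± 0.22, 5.49-fold, F11r by 1.48 ± 0.20, Itga6 by 1.38 ± 0.21 and Itgb5 by 1.19 ± 0.19. The runs of the populations did not overlap for these genes, nor for Itgb1, which was not called. How common such runs were among all genes was not computed, so they are not read as a trait of the members. Itgb1 (-0.19 ± 0.19) and Icam1 (0.16 ± 0.20) did not pass, so 7 of 9 members were called, beside 19.6% of all genes tested. Itga4 and Cd44 passed the low-count filter only by their levels in MHC class II-high cells, so they could be called only as higher. With no such filter 7 of 9 were called too, beside 11.5% of all genes. Without run 3 Itgax was not called (log2 1.81, edgeR adjusted p 0.289). With marker gates Selplg changed by -0.78 and Itgb5 by -0.28 (edgeR adjusted p 0.281).

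**Figure D2:**
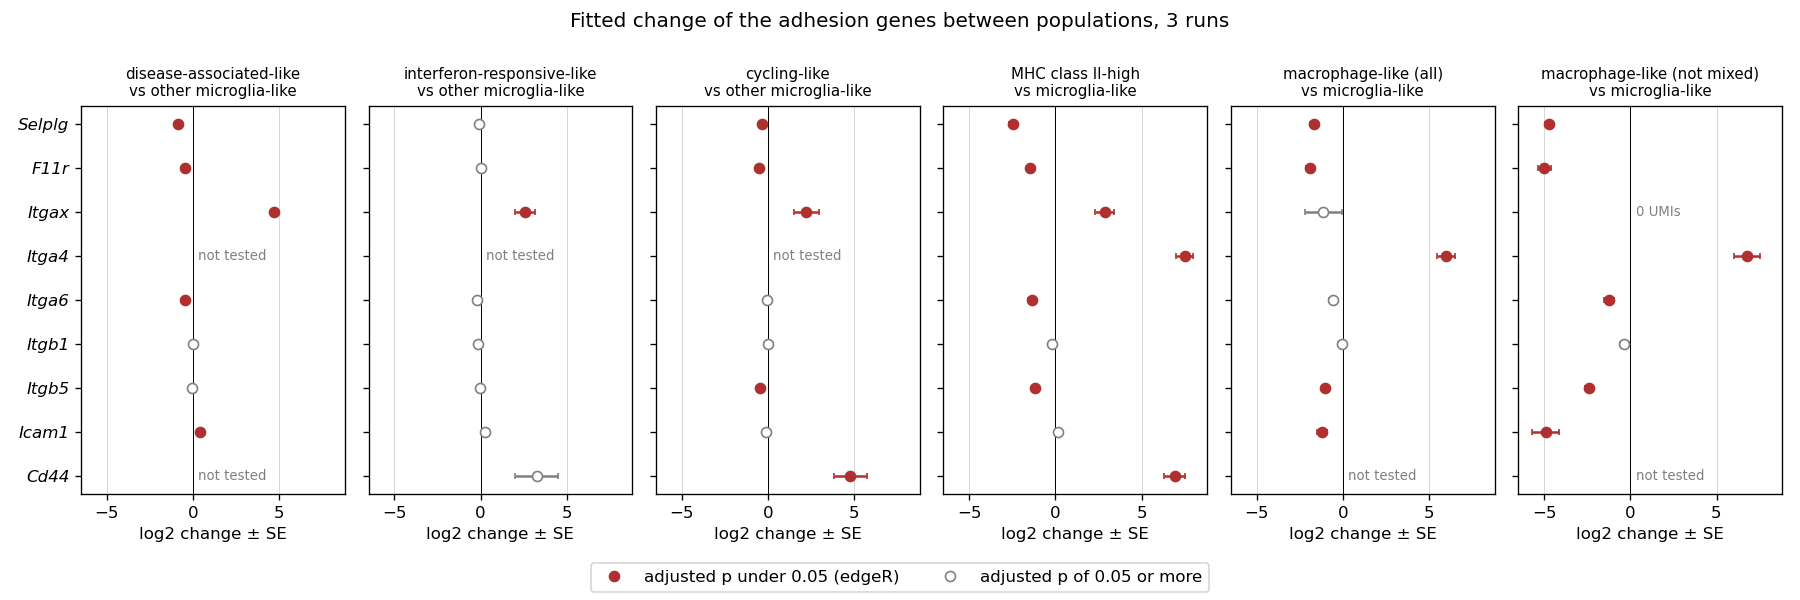
Fitted log2 change ± SE of each gene in 6 comparisons, with filled points for an edgeR adjusted p under 0.05 and open points for the rest. Itgax is called higher in 4 comparisons and Itga4 in each comparison with all microglia-like cells, while Itgb1 is open in all 6.

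Cd44, Itgax and Itga4 were unevenly spread over the MHC class II-high cells. The population had 4 sub-clusters, told apart without the adhesion genes and compared here as values with counting intervals and no test. A sub-cluster of 26 cells with Cd209a, Plac8 and S100a4 among its leading genes held 44 of the 50 Cd44 UMIs (173 CPM, exact 95% Poisson interval 126 to 232) and 14 of the 21 Itgax UMIs (54.9 CPM, 30 to 92.2). It had 938 CPM of Cd209a, 848 of Ccr2 and 62.8 of Flt3, genes of monocyte-derived and dendritic cells, and no UMI of the macrophage gene Pf4. These genes come from longer marker lists, whose other levels are not given here, and no such cell type was assigned to the sub-cluster. Of its cells 18 were in run 3 and 4 in each of runs 1 and 2. By run its Cd44 was at 71.5, 295 and 161 CPM and its Itgax at 35.8, 0 and 69.8 CPM. The other 99 cells had 0, 19.3 and 16 CPM of Cd44 in runs 1, 2 and 3.

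Itga4 was more widely spread, at 133 CPM (92.4 to 187) in the Cd209a-containing sub-cluster and at 73.2 (44.1 to 114), 51.4 and 63.7 CPM in the others. A sub-cluster of 46 cells with Pf4 at 1372 CPM held no UMI of Itgax or of Cd44, yet 19 of Itga4. Icam1 was highest in a sub-cluster of 15 cells led by the interferon-induced chemokine genes Cxcl9 and Cxcl10, which held 58 of the population's 97 Icam1 UMIs (462 CPM, 351 to 597). The Cd209a-containing cells had 23.5 CPM of Icam1 (8.64 to 51.3). Itgb5 was at 102 CPM and Itga6 at 27.5 CPM in the Cd209a-containing cells, below the counting intervals of each of the other 3 for Itgb5.

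**Figure D3:**
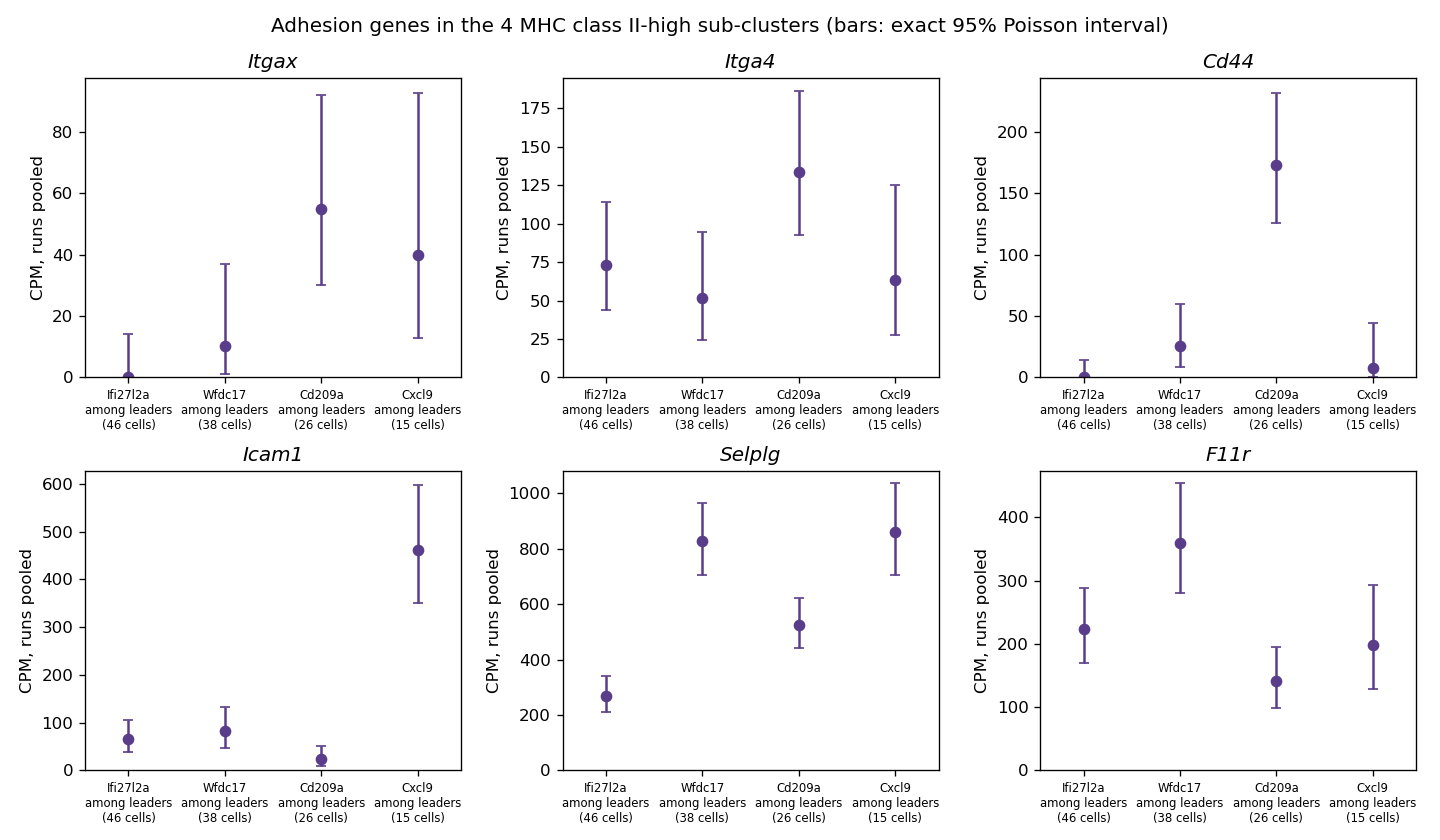
CPM of 6 genes in the 4 MHC class II-high sub-clusters, each named by a gene among its leading genes, runs pooled, with bars for the exact 95% Poisson interval (counting error only). Cd44 is highest at 173 CPM in the Cd209a-containing cells and Icam1 at 462 CPM in the Cxcl9-led cells.

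Other adhesion genes changed in MHC class II-high cells too, beside the same 19.6%. Of 9 other integrin subunits tested, 2 rose and 2 fell (median log2 -0.29 against -0.17 for all genes). Itgal, the LFA-1 subunit that binds ICAM-1, had 43 UMIs (45.3 ± 29.4 CPM) against 5 in all microglia-like cells (log2 9.53 ± 0.78), and Itgb7, a partner of alpha 4, had 63 against 23 (8.18 ± 0.61). Itgam fell by 1.81, from 462 to 102 CPM, and Itgav, the partner of beta 5, by 0.76. Of 15 surface molecules and ligands 7 rose and 4 fell (median 0.85), among the risers Cyr61 (log2 9.01), Emb (7.90), Alcam (7.19) and Spn (6.89). Of 21 activation genes 3 rose and 8 fell (median 0.09). Rasgrp2, which activates Rap1, rose by 6.40 to 31.8 ± 3.41 CPM and Fgr by 3.92, while Parvg fell by 1.32 and Apbb1ip, the Rap1 effector RIAM, by 1.24. Itgal, Itgb7, Cyr61, Emb, Alcam, Spn and Rasgrp2 were near 0 in microglia-like cells. They passed the low-count filter only by their levels in MHC class II-high cells and could be called only as higher. The 11 activation calls became 6 by DESeq2 (beside 11.7% of all genes), 7 without run 2 (12.9%) and 5 with marker gates (11.3%). By these gates Itgam and Parvg were not called. Itgav was not called without run 3, without the block or by DESeq2.

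Border-associated macrophage-like cells had more Itga4 and less Selplg, F11r, Itgb5 and Icam1 than microglia-like cells, and how much less turned on the mixed clusters. Over all 115 cells, Itga4 rose from 0.602 to 44.7 ± 20.8 CPM (SD, n = 3, log2 6.01 ± 0.52, edgeR adjusted p 7.14e-28). Selplg, at 2409, 1084 and 652 CPM in runs 1, 2 and 3, fell by 1.69 ± 0.20, F11r by 1.89 ± 0.23, Icam1 by 1.21 ± 0.28 and Itgb5 by 1.01 ± 0.21. That is 5 of 8 members tested, beside 4.07% of all genes. Itga4 passed the low-count filter only by its level in macrophage-like cells, so it could be called only as higher. With no such filter 5 of 9 members were called, beside 2.8% of all genes. Icam1 and Itgb5 were not called without run 3, nor Itgb5 without run 2, nor Icam1 by the DESeq2 test (adjusted p 0.753). Without run 1, which held 45 of the 58 mixed cells, the changes were -2.36 for Selplg, -2.99 for F11r and -3.44 for Icam1, and Itga6 was called (-0.91, edgeR adjusted p 0.0144).

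Without the mixed clusters the falls were larger. The 57 cells left were 13, 13 and 31 by run, under the minimum of 15 cells set for the other tests. In them Selplg fell by 4.72 ± 0.24 (26.4-fold, edgeR adjusted p 1.74e-80), F11r by 5.01 ± 0.38 (32.1-fold, from 6 UMIs), Itgb5 by 2.39 ± 0.24 and Itga6 by 1.23 ± 0.29. Itga4 rose by 6.76 ± 0.74 (edgeR adjusted p 1.93e-17). The pooled Icam1 level was 29.9 times lower than in microglia-like cells by its single UMI, with a counting interval of 5.37 to 1182. Itgb1 changed by -0.35 ± 0.27 and did not pass. Here 6 of 8 members tested were called, Icam1 among them, beside 7.77% of all genes. Leaving out also the 2 cells just under the mixed limit, which moved Selplg by over 1.5 times, gave -5.48 ± 0.27 for Selplg. The same number of members was then called, beside 7.58% of all genes. The summed level of the 12 microglia markers was 4524 to 6252 CPM in these cells and 20822 to 27276 CPM in the mixed clusters.

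Among other adhesion genes over all 115 cells, beside the same 4.07%, Vcam1, whose product binds alpha 4 beta 1, rose by 7.30 to 312 ± 135 CPM from 2.00, and the matrix ligand gene Cyr61 by 11.2 to 206 ± 241 CPM, a level that varied between runs by more than its mean. In the unmixed cells Vcam1 was at 475 ± 222 CPM and Cyr61 at 217 ± 249 CPM. Cyr61, near 0 in microglia-like cells, passed the low-count filter only by its level in macrophage-like cells. Of 12 surface molecules 3 rose and 3 fell (median -0.36 against -0.10 for all genes), with Jam3 down by 1.93 and Cd34 by 1.63. Of 7 integrin subunits Itgam alone fell, by 0.97. Of 21 activation genes 2 rose and 1 fell, which was Apbb1ip (-1.23), while Tln2 rose by 0.85. Itgam was not called without run 2, without run 3, without the block or by DESeq2. Tln2 was not called without run 3, without the block or by DESeq2, Apbb1ip was not called without run 3, and Jam3 was not called without run 1, without run 3 or by DESeq2. Without the mixed clusters, beside 7.77% of all genes, 2 of 7 integrin subunits fell (Itgam by 2.13), 3 of 12 surface molecules rose and 5 fell, and 2 of 21 activation genes rose and 6 fell, with Apbb1ip at -2.64 and Tln2 at 1.31. Jam3 and Cd34 had no UMI in the unmixed cells, which allows up to 13.3 CPM.

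Macrophage-like and MHC class II-high cells were also set against each other. The MHC class II-high cells included the sub-cluster of 46 cells with Pf4, which also had the macrophage marker Ms4a7 among its leading genes. The 2 groups were thus not fully distinct by marker, and the part of that sub-cluster in the differences was not tested. Over all 115 macrophage-like cells Selplg was higher by 0.86 ± 0.23 (edgeR adjusted p 0.0166) and Itga4 lower by 1.20 ± 0.35 (log2 -1.20, adjusted p 0.0296), 2 of 7 members tested, beside 8.44% of all genes. Neither was called without run 1 (edgeR adjusted p 0.411 for Selplg and 0.302 for Itga4) or without run 2 (0.0761 for both), and without the block Selplg was not (0.0502). With the mixed clusters left out the sign for Selplg turned, to -2.08 ± 0.34 (edgeR adjusted p 1.13e-07). F11r then differed by -3.20 ± 0.50 and Itgb5 by -0.97 ± 0.32, Icam1 had 1 UMI against 97 and was called lower too, and Itga4 (-0.50 ± 0.43, adjusted p 0.529) did not pass. That made 4 of 7 members, beside 14.2% of all genes. Cd44, with no UMI against 50, and Itgax, with 2 UMIs against 21, were below the filter in both. Vcam1 was higher in macrophage-like cells by 1.24 and Tln2 by 2.01, and neither was called without run 3.

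The 15 T/NK-like cells are described by values alone. Of them 3 held both Xist and Y-linked UMIs, against 2.54% of microglia-like cells. The part of doublets in the levels of these 15 cells was not tested. Their Selplg level, 110 UMIs in all, lay between those of disease-associated-like and MHC class II-high cells. With cells thinned to 2000 UMIs, Cd44 was found in 4 of 12 cells (33.3%, exact 95% interval 9.92 to 65.1) and Itga4 in 1. Itgb1 was at 339, 49.9 and 480 CPM in runs 1, 2 and 3, from 34 UMIs.

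Genes whose levels ran most alike with a member were sought among 5165 genes over 24 sums of 8 populations and 3 runs, as a description, since the sums of a run share a library and depth. Selplg ran most like Lpcat2 (Pearson r 0.97), Slc2a5 and Ptgs1, F11r like Abi3 (0.95), Ywhah and Lair1, and Itgb5 like Cd81 (0.97), Apbb1ip and Rtn4rl1. Itga6 ran most like Bcl9l (0.93), Adam10 and Rsbn1l, Itgb1 like Cerk (0.87), Mertk and Ccnt1, and Icam1 like Nfkbie (0.91), B4galnt1 and Accs. Itga4 ran most like App (0.92), H2afj and Cyr61, Cd44 like Eif3m (0.85), Snrpd2 and Snrpe, and Itgax like Hspe1 (0.80), Npm1 and Eno1. Among the members themselves Selplg and Itgb5 ran together (0.94), as did Selplg and F11r (0.87), and Selplg and Itga4 ran opposite (-0.87). The macrophage-like sums used for all these values included the mixed clusters, and no correlation was computed without them.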

How the data were processed

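Per the labels' protocols, hippocampi were dissected from perfused mice, freed of myelin, sorted by flow cytometry and made into 10x Genomics libraries. The deposited values are raw UMI counts per gene and barcode. Per the file headers, the counting software was version 3.0.2 for run 1 and 3.1.0 for runs 2 and 3, and the submitters' processing notes name Cell Ranger, Seurat 4.0 and mm10. The lowest deposited barcode held 500 UMIs. Of 31053 gene IDs, 30934 were found in GENCODE M21 (GRCm38), which gave the positions. The members and lists were chosen with earlier results of these data known.

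Cells were clustered with scanpy 1.11.5 and leidenalg 0.10.2 on 2000 variable genes (30 components, 15 neighbours, resolution 0.5), without the members, the lists, sex-linked and mitochondrial genes. Clusters of other immune cells were divided again (500 genes, 10 components, resolution 2). A cluster was named from at least 3 markers, each at least 2-fold higher there, among its 10 leading genes. These thresholds were chosen with the data in view, and the names are rebuilt, not the submitters' own. No doublet caller was run.

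UMIs of each population were added up by run, and the sums were tested in edgeR 4.0.16 (quasi-likelihood, TMM, filterByExpr, run as a block), with Benjamini-Hochberg adjustment over genes outside the clustering features and markers, and a threshold of 0.05. Both sums of a run come from 1 library, and within a run they departed from their population means together (correlation 0.103 to 0.562 across genes). Genes shared 1 estimate of spread in 4 of 6 fits (infinite prior degrees of freedom). Lists were written from general knowledge, but with earlier results of these data known, so they are not independent of the data. At most 4 genes per list and comparison are named. These had the largest changes past the threshold, moved one way in all 3 runs and reached 20 CPM or more where higher. A result of the lists that the rule names is not reported here. All 9 members are described. For likeness, the 3 genes with the highest Pearson r to log2(CPM + 1) are named. CPM was computed from the deposited counts. Shares were thinned to 2000 UMIs, leaving out shallower cells. Intervals are at 95% and cover counting error only, and a count of 0 is read as up to 3. Log2 changes of genes near 0 in a population depend on the prior count. Such a gene could pass the low-count filter by its level in the other population alone, and could then be called only as higher there. This held for Cd44 and Itga4 where they were called against microglia-like cells, and for list genes near 0 in microglia-like cells.

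Tested on simulated counts, the disease-associated-like comparison recovered 64.0% of genes changed by 1 and 96.0% of those changed by 2 on the log2 scale among 9461 genes. The macrophage-like comparison recovered 19.0% and 73.2% among 9536. The simulated counts had a fixed spread and no effect of run. That spread was far wider than the one fitted in the disease-associated-like comparison, so the recovered shares do not carry over to it. Alternatives were no block, no low-count filter, DESeq2 1.42.0 size factors and test, each run left out, at least 2000 UMIs, removal of cells with Xist and Y-linked UMIs, marker gates, resolution 1 and 1 fit over all populations. Leaving out the mixed clusters, these with the 2-cell cluster just under the limit, or the neutrophil transcript-led cluster, and testing all genes were added after the data had been seen.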

Additional observations from a re-analysis of the deposited data

How the results depend on the processing

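Over the changes of single members and their alternatives, 568 of 654 values kept their direction and their side of the threshold. The count of members called moved by over 1.5 times as follows. Without the replicate block it fell from 5 to 2 in disease-associated-like, from 1 to 0 in interferon-responsive-like and from 5 to 2 in cycling-like cells. It fell from 2 to 1 for macrophage-like against MHC class II-high cells, and no other count moved so far. The share of all genes called fell in these comparisons too, from 32.2% to 5.22%, 2.46% to 0.455%, 16.4% to 7.23% and 8.44% to 6.61% in that order. Leaving out 1 run gave 0 to 1 in interferon-responsive-like cells (0 without run 1 or run 2, with 3 at an unadjusted p under 0.05 in edgeR each time). It gave 2 to 4 in cycling-like, 3 to 6 in macrophage-like against microglia-like and 0 to 3 in macrophage-like against MHC class II-high cells. Of all genes, 0.837% to 1.91%, 6.95% to 13.5%, 1.21% to 5.3% and 4.29% to 5.4% were then called, in that order. Interferon-responsive-like cells had 2 with DESeq2 size factors (beside 2.68% of all genes) and 2 with marker gates (1.34%). Cycling-like cells had 3 in 1 fit over all populations (18.6%). Macrophage-like against MHC class II-high cells gave 5 with no low-count filter (beside 2.59% of all genes), 1 with the DESeq2 test (5.24%) and 1 with cells holding Xist and Y-linked UMIs removed (11.3%). The same comparison gave 4 at resolution 1 (13%), 5 in 1 fit (11.4%), 4 without the mixed clusters (14.2%) and 4 without these and the 2-cell cluster just under the limit (12.4%). It gave 0 in edgeR with all genes tested (10.5%), where 4 had an unadjusted p under 0.05. The mixed clusters apart, the cause of these moves was not tested.

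Signs turned as follows, for changes that did not pass where no p is given. Itgb1 in disease-associated-like cells was at -0.0011 with no filter and from -0.0717 to 0.121 with 1 run left out (lowest without run 3), and Itgb5 from -0.102 to 0.0058 (highest without run 2). In interferon-responsive-like cells F11r was at -0.0058 with no filter, -0.0072 with gates and from -0.0015 to 0.0387 with 1 run left out (lowest without run 1), and Itgb5 at 0.0103 with DESeq2 size factors, 0.0083 with its test, 0.0084 at resolution 1 and from -0.0854 to 0.0201 with 1 run left out (above 0 without run 2 or run 3). In cycling-like cells Itga6 ran from -0.0645 to 0.00041 with 1 run left out (highest without run 2), and Itgb1 was at 0.0121 with DESeq2 size factors, 0.0032 with its test, 0.0035 with Xist and Y-linked cells removed, 0.0223 in 1 fit and from -0.0791 to 0.0602 with 1 run left out (highest without run 3). In macrophage-like cells Itgax was at 0.47 and Itgb1 at 0.0281 in 1 fit, and Icam1 in MHC class II-high cells ran from -0.0732 (without run 2) to 0.361. For macrophage-like against MHC class II-high cells, Selplg was at -0.59 with gates (edgeR adjusted p 0.149) and -2.08 without the mixed clusters (1.13e-07), or -2.82 also without the 2-cell cluster (1.37e-05), Itgb5 at -0.37, -0.97 (0.026) and -1.07 (0.0377) in the same settings, Itga4 at 0.55 and Itga6 at -0.0124 with gates, and F11r from -1.43 (without run 1) to 0.0461 (without run 2), with 0.0078 without run 3.

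Of 162 mean levels under other cell choices, 142 stayed within 1 SD over runs. T/NK-like cells were not tested. Fits with under 15 cells in a run are not counted above, other than those without the mixed clusters (12 or 13 cells, added with a minimum of 10). Of those left out, cycling-like cells by gates (13 cells) gave 3 members called, beside 15.1% of all genes. With at least 2000 UMIs per cell (10 cells) macrophage-like cells gave 5 against microglia-like cells (3.51%) and 4 against MHC class II-high cells (10.9%). Rare UMIs limit Itga4, Cd44 and Itgax in microglia-like states and all genes in the 57 unmixed macrophage-like cells.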
